A study of Homo sapiens with 6 samples.

Results

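The genes described here are those for the SR proteins, the hnRNPs and the kinases and partner proteins that act with them in choosing splice sites. They were taken by name: every row of the count table whose symbol is SRSF followed by a number or follows the common HNRNP pattern, together with TRA2A, TRA2B, CLK1 to CLK4, SRPK1, SRPK2, PTBP1 to PTBP3, SRRM1, SRRM2, SRRM4, RBFOX2, ESRP1 and NOVA2. This gave 66 of the 36458 gene symbols: 37 hnRNP rows, of which 14 are pseudogenes, 12 SR proteins, 5 SR-related proteins, 6 kinases, 3 polypyrimidine tract binding proteins and 3 tissue-restricted regulators. HNRNPA2B1, a major hnRNP gene, is not matched by the name pattern and is given only for comparison. Human DMS114 cells, an established line from a small cell cancer of the lung, were exposed to 2.5 mM β-alanine, a non-proteinogenic amino acid, for 48 h in 3 libraries, and 3 control libraries received an equal volume of vehicle. No genetic change was made to either group, and both groups are the same single line. Polyadenylated RNA was counted per gene. Whether the libraries of a group are separate cultures is not said in the labels. The p-values therefore measure only how these libraries vary, and that variation may be technical.

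SR proteins bind exonic enhancers through RNA recognition motifs and help the U1 and U2 snRNPs settle on nearby splice sites through a tail rich in arginine and serine. Many hnRNPs coat the nascent transcript and oppose exon inclusion, and the ratio of the opposing factors shifts splice choice. SRPK kinases phosphorylate the tail in the cytoplasm, which aids import, and CLK kinases phosphorylate it in the nucleus, which releases SR proteins from speckles. Many of these genes control their own mRNA through alternative exons that send it to nonsense-mediated decay. Counts per gene do not show which exons or isoforms were used.

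Libraries held 14433801 to 32909568 counts, and β-alanine library 1 was the shallowest. It also stood apart on the first principal component of all genes, at -9.13 against -23.5 and -23.6 for the other β-alanine libraries and positive values for the controls. On the second component it lay at 27.2, against -8.55 and -9.13 for the other β-alanine libraries and -6.21 to 1.26 for the controls. The line's label was checked against markers. Levels are given as CPM, the count scaled to a common library total. SYP was present at a mean of 61.0 CPM in controls and YAP1 at 124 CPM, NEUROD1 was at 2.28 CPM, and INSM1 and POU2F3, transcription factors of small cell subtypes, had 1 to 9 counts per library. Of 10 tested subtype and neuroendocrine markers, 4 rose with β-alanine (CHGA, CHGB, SYP and UCHL1) and 1 fell (NCAM1). Over all tested genes 14.1% rose and 13.8% fell. The summed level of these markers was 529.4 to 574.6 CPM with β-alanine and 491.9 to 496.2 CPM in controls. Markers of endothelial cells (5 listed) and of white blood cells (7 listed) were too low to test. Of 6 tested fibroblast markers, 3 fell and 1 rose, and their summed level was 910.3 to 1011 CPM with β-alanine and 1142 to 1186 CPM in controls, with COL3A1 high in both groups and COL1A2 at 0 to 5 counts per library. The 13 mitochondrially encoded genes summed to 38310 to 40860 CPM with β-alanine and 41480 to 47630 CPM in controls. These levels moved with the groups, and their part in the results below was not tested. Fewer cells of a kind and less RNA per cell cannot be told apart in such bulk samples.

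Across the set, mRNA levels were slightly lower after β-alanine, mainly in libraries 2 and 3. The mean log2 shift of the tested rows from the control mean was -0.02, -0.08 and -0.11 in β-alanine libraries 1, 2 and 3. Over all tested genes it was -0.02, 0.00 and 0.00. Of the 66 rows, 49 were high enough to test, and by the quasi-likelihood test of edgeR, with p adjusted by Benjamini-Hochberg over all 17331 tested genes, 16 fell and 1 rose at an adjusted p below 0.05. Over all tested genes 13.8% fell and 14.1% rose. For the SR, hnRNP and related genes, 32.65% fell, and their median log2 fold change was -0.09 against 0.00 for all tested genes. When only genes with an average log2 CPM of at least 1 were tested, 17.6% of all of them fell, and 18 of the set. The changes were small. The 16 genes fell by 6.75% to 24.1%, and fell by 11.0% at the median, and no tested row lay outside a log2 fold change of -0.40 to 0.22. Of the 49, 40 had a negative value, as had 8762 of all 17331 tested genes. In 20 rows every β-alanine library lay below every control (19.2% of all tested genes did), and in 4 every β-alanine library lay above (19.9% of all tested genes).

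The number of falls depended on single libraries. Without β-alanine library 2 it was 6, without β-alanine library 3 it was 7, without control 2 it was 8, and without β-alanine library 1 it was 28, while the share of all tested genes that fell was 8.44%, 9.4%, 8.49% and 18.3% in the same fits. No member rose without β-alanine library 3 (9.46% of all tested genes rose) or without control 2 (8.96%), 2 rose without β-alanine library 1 (17.8%), and without control 3 NOVA2 rose in place of SRSF4. HNRNPA1, HNRNPDL, SRRM1 and SRSF5 were called as lower in the main test and in all 14 alternative fits.

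**Figure D1:**
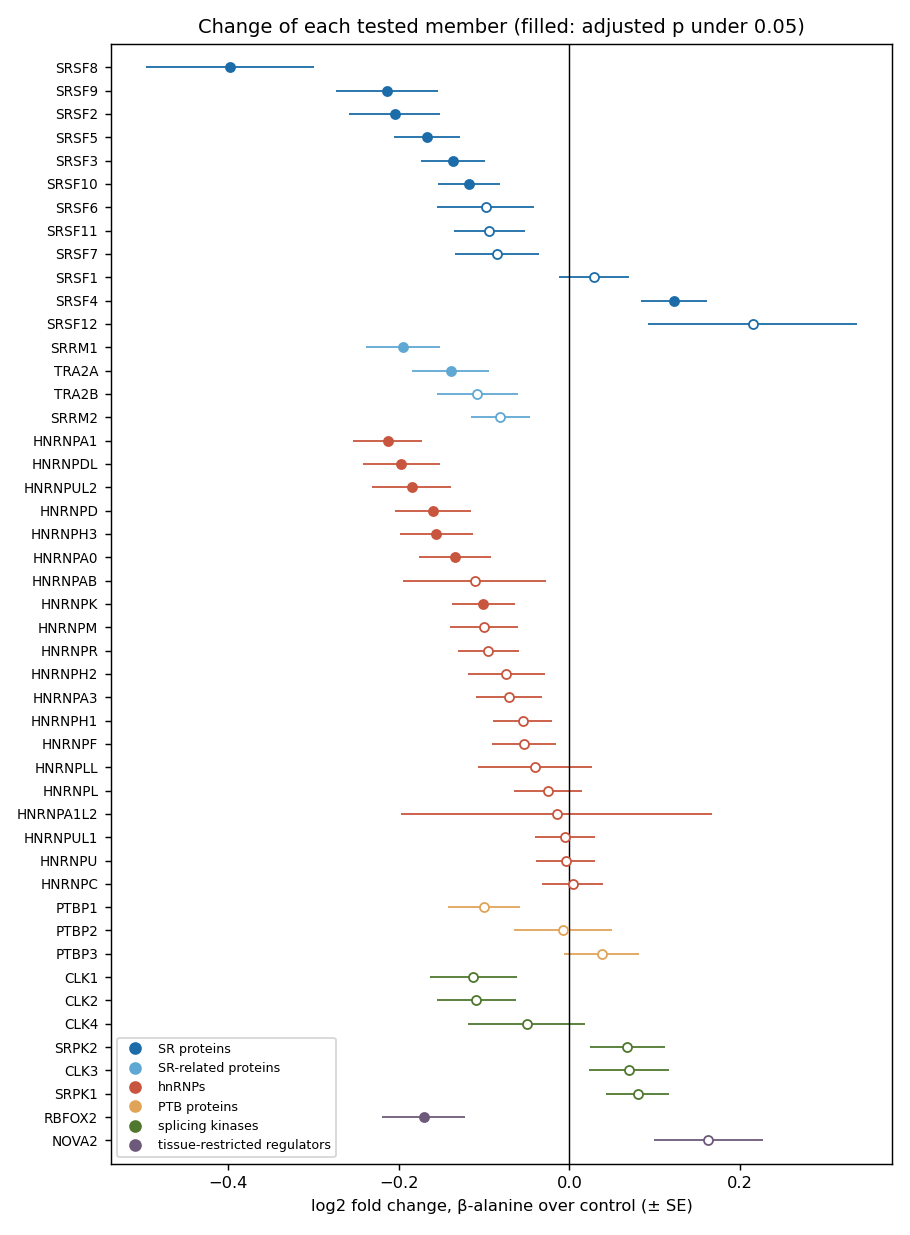
Log2 fold change of β-alanine over control for each tested member, pseudogenes left out, by class; bars are the SE and filled points had an adjusted p below 0.05 in edgeR. The 16 genes that fell lie between -0.40 and -0.10, SRSF4 at 0.12 is the 1 that rose, and no kinase passed.

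Among the 12 SR proteins, 6 fell (SRSF2, SRSF3, SRSF5, SRSF8, SRSF9 and SRSF10), SRSF4 rose, and 5 did not pass the test. Of all tested genes, 13.8% fell and 14.1% rose. The median log2 fold change of the 12 SR proteins was -0.11. SRSF5 (chr14:69767142-69772005, plus strand; RefSeq, GRCh38.p14), an SR protein first found as a gene induced in regenerating liver, measured 183, 175 and 173 CPM in β-alanine libraries 1, 2 and 3 and 198, 199 and 199 CPM in control libraries 1, 2 and 3. All 3 treated libraries lay below all 3 controls, which were nearly equal. The means were 177 ± 5.12 CPM with β-alanine and 199 ± 0.380 CPM in controls (SD, n = 3 each), a log2 fold change of -0.17 ± 0.04 (SE) or 10.9% lower (adjusted p = 0.00266).

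SRSF8 (chr11:95066877-95071225, plus strand), a close relative of SRSF2, had the largest fall among the tested members. Its values were 16.6, 12.8 and 13.4 CPM in β-alanine libraries 1, 2 and 3 and 17.0, 20.6 and 17.5 CPM in control libraries 1, 2 and 3. The groups did not overlap, but β-alanine library 1 lay close to control 1. The log2 fold change was -0.40 ± 0.10 (95% interval -0.60 to -0.19), 24.1% lower (adjusted p = 0.00448), and without control 2 the adjusted p was 0.0645. SRSF2, which binds exonic enhancers and is found in speckles, measured 223, 190.0 and 189.6 CPM with β-alanine and 234, 235 and 223 CPM in controls. Its β-alanine library 1 lay above control 3, so the groups overlapped. Its log2 fold change was -0.21 ± 0.05 (adjusted p = 0.00918), and the adjusted p was 0.0573 without β-alanine library 2, 0.0528 without control 1 and 0.0595 without control 2. SRSF9 measured 201, 192 and 179 CPM with β-alanine and 244, 212 and 207 CPM in controls. Control 1 was the highest and the groups did not overlap. The log2 fold change of SRSF9 was -0.21 ± 0.06 (adjusted p = 0.0162), with 0.0559 without β-alanine library 2, 0.0556 without β-alanine library 3 and 0.0561 without control 1. SRSF2 shares 1106 exonic bases with MFSD11 and SRSF9 shares 1729 with GATC, both on the opposite strand (GENCODE release 29). Since the use of strand in counting is not given, reads of these genes and their partners cannot be told apart.

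SRSF3, the smallest classical SR protein, and SRSF10, which is known as a splicing repressor when dephosphorylated, had log2 fold changes of -0.14 ± 0.04 (adjusted p = 0.00879) and -0.12 ± 0.04 (adjusted p = 0.0180). The SRSF3 call was lost without β-alanine library 2 (0.0514) and without library 3 (0.0575). The SRSF10 call was lost without β-alanine library 2 (0.0753), library 3 (0.0583), control 2 (0.0684) or control 3 (0.0601).

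SRSF4 (chr1:29147743-29181900, minus strand), an SR protein with a long arginine and serine tail, went the other way. It measured 183, 178 and 184 CPM in β-alanine libraries 1, 2 and 3 and 169, 166 and 165 CPM in control libraries 1, 2 and 3. Every treated library was above every control. The means were 182 ± 3.09 CPM with β-alanine and 167 ± 1.94 CPM in controls (SD, n = 3 each), a log2 fold change of 0.12 ± 0.04 (95% interval 0.04 to 0.20) or 8.89% higher (adjusted p = 0.0201). The adjusted p was 0.0923 without β-alanine library 3, 0.0839 without control 2 and 0.0858 without control 3. SRSF1, the founding member of the family, had a log2 fold change of 0.03 ± 0.04 (adjusted p = 0.654). It shares 1890 exonic bases on its own strand with the protein-coding AC015813.2 and 440 with AC015813.5 on the opposite strand. Its count may therefore be split with these genes or hold their reads. SRSF6, SRSF7, SRSF11 and SRSF12 lay at -0.10 ± 0.06, -0.09 ± 0.05, -0.09 ± 0.04 and 0.22 ± 0.12, with adjusted p of 0.216, 0.211, 0.0949 and 0.204. SRSF12 was the least abundant of the family, at 6.95 CPM in controls. Without β-alanine library 1, SRSF6, SRSF7 and SRSF11 also passed, each as lower (adjusted p = 0.00270, 0.000456 and 0.0436).

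**Figure D2:**
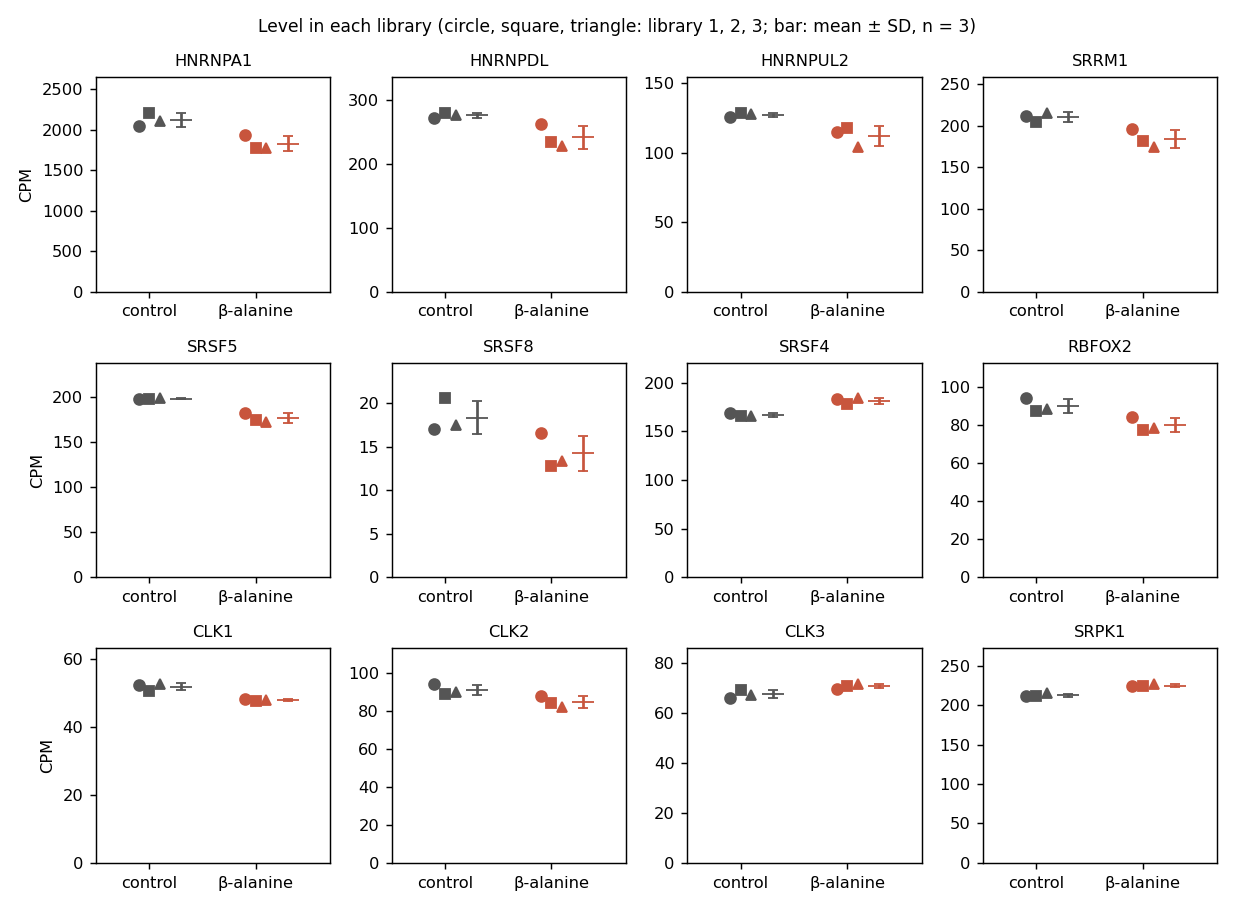
CPM, counts scaled to a common library total, in each of the 6 libraries for 12 members, one panel per gene with its own axis from 0; circles, squares and triangles are libraries 1, 2 and 3 of each group, and the bar beside them is the mean ± SD (n = 3). HNRNPA1, HNRNPDL, SRRM1 and SRSF5 lie lower in every β-alanine library than in every control, and SRSF4 lies higher.

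Of the 22 tested hnRNP rows, 7 fell (31.8%, against 13.8% of all tested genes) and none rose: HNRNPA0, HNRNPA1, HNRNPD, HNRNPDL, HNRNPH3, HNRNPK and HNRNPUL2. The median log2 fold change was -0.07, and 21 of the 22 values were negative, as were 8762 of all 17331 tested genes. At an unadjusted p below 0.05 none was higher, as was also so for adjusted calls in DESeq2 and limma-voom. HNRNPA1 (chr12:54280726-54287087, plus strand), which binds exonic and intronic silencers and shuttles to the cytoplasm, was the most abundant member. It measured 1941, 1774 and 1778 CPM in β-alanine libraries 1, 2 and 3 and 2043, 2209 and 2111 CPM in control libraries 1, 2 and 3. Every treated library was below every control. The means were 1831 ± 95.1 CPM with β-alanine and 2121 ± 83.3 CPM in controls (SD, n = 3 each), a log2 fold change of -0.21 ± 0.04 (95% interval -0.30 to -0.13) or 13.7% lower (adjusted p = 0.000469).

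HNRNPDL (chr4:82422564-82430462, minus strand), a paralog of HNRNPD, measured 262, 235 and 228 CPM in β-alanine libraries 1, 2 and 3 and 272, 280.3 and 277 CPM in control libraries 1, 2 and 3. All treated values lay below the controls, with β-alanine library 1 nearest to them. Its log2 fold change was -0.20 ± 0.04, 12.8% lower (adjusted p = 0.00231). HNRNPUL2 (chr11:62712630-62727457, minus strand), related to the scaffold protein HNRNPU, measured 115, 118 and 104 CPM with β-alanine and 126, 128 and 127 CPM in controls. The groups did not overlap and the controls were nearly equal. Its log2 fold change was -0.18 ± 0.05 (adjusted p = 0.00477), and without β-alanine library 3 the adjusted p was 0.0565. HNRNPUL2 shares 2391 exonic bases on its own strand with the annotated readthrough HNRNPUL2-BSCL2, so its count may be split between them.

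The other falls were smaller, and each was lost when certain single libraries were left out. HNRNPD, which binds AU-rich elements and affects mRNA decay, had a log2 fold change of -0.16 ± 0.04 (adjusted p = 0.0100), HNRNPH3 of the G-run binding HNRNPH family -0.16 ± 0.04 (0.00859), HNRNPA0 -0.13 ± 0.04 (0.0217) and the C-rich binding HNRNPK -0.10 ± 0.04 (0.0458). HNRNPD and HNRNPH3 lost their calls in the fits without treated library 2, treated library 3 or control 2 (HNRNPD 0.0512, 0.0720 and 0.0913; HNRNPH3 0.0514, 0.0669 and 0.0750). HNRNPA0 lost it in 5 of the 6 fits with 1 library left out, at adjusted p of 0.0502 to 0.144, the exception being β-alanine library 1. HNRNPK lost it without β-alanine library 2 (0.159), library 3 (0.166), control 1 (0.201) or control 2 (0.130), and also with unscaled library totals, without the filter on low counts and in DESeq2. HNRNPD, HNRNPH3 and HNRNPK each share 115 to 309 exonic bases with a gene on the opposite strand.

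HNRNPC and HNRNPU, which bind uridine tracts and scaffold chromatin RNA respectively, showed almost no difference. HNRNPC measured 796 ± 17.7 CPM with β-alanine and 793 ± 19.1 CPM in controls (SD, n = 3 each), with a 95% interval of the log2 fold change of -0.07 to 0.08. HNRNPU measured 1132 ± 22.9 CPM with β-alanine and 1135 ± 14.5 CPM in controls (SD, n = 3 each), with an interval of -0.08 to 0.07, and it shares 3502 exonic bases with COX20 on the opposite strand. HNRNPA2B1, outside the name pattern, lay at -0.02 ± 0.04 (adjusted p = 0.749). HNRNPM (-0.10 ± 0.04, adjusted p = 0.0633) and HNRNPR (-0.09 ± 0.04, adjusted p = 0.0547) were just outside the threshold, HNRNPAB lay at -0.11 ± 0.08 (adjusted p = 0.379), and HNRNPA3, HNRNPF, HNRNPH1, HNRNPH2, HNRNPL, HNRNPLL and HNRNPUL1 lay between -0.07 and -0.005. Without β-alanine library 1, HNRNPAB (-0.21, adjusted p = 0.000339), HNRNPLL (-0.13, 0.0239), HNRNPA3 (-0.10, 0.0162), HNRNPM (0.00372) and HNRNPR (0.00924) also passed as lower. HNRNPM passed as well without control 1 (0.0364), and HNRNPAB lay at -0.03 without β-alanine library 3. HNRNPA1L2, a copy of HNRNPA1 with little RNA of its own, had 68, 89 and 96 counts with β-alanine and 55, 90 and 65 in controls and could hold reads of HNRNPA1.

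To show the letters before the start of genes that fell, the upstream bases of 4 are given: those with a RefSeq promoter entry whose 200 bases from 250 to 51 before the start hold no annotated exon. Letters are 5′ to 3′ on the gene's strand (RefSeq, GRCh38.p14). Capitals mark a CCAAT box (CCAAT, or ATTGG on the other strand) or a GC box (GGGCGG, or CCGCCC on the other strand). Their GC content was 68.5% for HNRNPA0, 66.0% for SRSF3, 64.0% for HNRNPUL2 and 33.5% for SRSF8.
HNRNPA0, chr5:137754414-137754613, minus strand: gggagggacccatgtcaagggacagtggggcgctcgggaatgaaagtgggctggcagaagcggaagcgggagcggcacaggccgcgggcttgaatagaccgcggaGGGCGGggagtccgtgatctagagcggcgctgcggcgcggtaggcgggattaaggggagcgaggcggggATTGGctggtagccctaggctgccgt
SRSF3, chr6:36594112-36594311, plus strand: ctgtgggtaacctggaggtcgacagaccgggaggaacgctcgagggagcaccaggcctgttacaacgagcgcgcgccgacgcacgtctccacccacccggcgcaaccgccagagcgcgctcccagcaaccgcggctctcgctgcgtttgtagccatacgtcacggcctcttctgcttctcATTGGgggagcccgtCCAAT
HNRNPUL2, chr11:62727508-62727707, minus strand: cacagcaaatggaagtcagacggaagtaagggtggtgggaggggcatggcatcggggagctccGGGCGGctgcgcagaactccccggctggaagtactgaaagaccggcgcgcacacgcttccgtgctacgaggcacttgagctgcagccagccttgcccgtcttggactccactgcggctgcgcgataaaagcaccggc
SRSF8, chr11:95066627-95066826, plus strand: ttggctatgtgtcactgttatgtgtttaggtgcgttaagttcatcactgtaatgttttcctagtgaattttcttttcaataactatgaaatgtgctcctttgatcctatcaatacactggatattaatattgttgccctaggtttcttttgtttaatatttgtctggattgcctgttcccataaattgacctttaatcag

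In the printed 200 bases HNRNPA0 holds 1 match of each motif, SRSF3 holds 2 CCAAT boxes and HNRNPUL2 holds 1 GC box. The AT-rich printed window of SRSF8, the gene with the largest fall, holds none. When all 250 bases before the start are read, SRSF8 holds 1 CCAAT box, and HNRNPUL2 holds 1 CCAAT box and 2 GC boxes. RefSeq promoter entries were matched for 43 of the 47 tested members that are not pseudogenes, and for 12 of the 16 that fell. In the 250 bases before the start, on either strand, a CCAAT box was found in 18 of the 43 (41.9%), in 6 of the 12 that fell and in 35.0% of the 11373 promoters of tested genes. A GC box was found in 30 of the 43 (69.8%), in 7 of the 12 and in 67.6% of promoters of tested genes. The E-box CACGTG was found in 8 of the 43 (18.6%), in 3 of the 12 and in 8.91% of promoters of tested genes. The cAMP response element TGACGTCA was found in none of the 43 and in 2.79% of promoters of tested genes. Over all 27305 promoters the shares were 33.0%, 42.3%, 6.49% and 1.77%. For these shares windows with annotated exons were kept, in the set and in the promoters of tested genes. Most of the 43 windows overlap an annotated exon. In SRSF10, SRRM1, HNRNPH3, SRSF5, SRRM2, SRSF1, PTBP1 and HNRNPM an exon covers all 250 bases. The shares therefore mix upstream and transcribed sequence. A match is a description of the letters only.

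All 4 tested SR-related genes had negative values, and SRRM1 and TRA2A passed the test. SRRM1 (chr1:24643302-24673281, plus strand), a coactivator that bridges SR proteins and the spliceosome, measured 197, 182 and 175 CPM in β-alanine libraries 1, 2 and 3 and 212, 205 and 216 CPM in control libraries 1, 2 and 3. No treated library reached a control. The means were 185 ± 10.9 CPM with β-alanine and 211 ± 5.60 CPM in controls (SD, n = 3 each), a log2 fold change of -0.19 ± 0.04 or 12.6% lower (adjusted p = 0.00188). TRA2A, an exonic enhancer binder, had a log2 fold change of -0.14 ± 0.05 (adjusted p = 0.0245), and its call was lost without β-alanine library 2 (0.0757), library 3 (0.151), control 1 (0.123) or control 2 (0.0758) and with libraries thinned to equal depth. Its paralog TRA2B lay at -0.11 ± 0.05 (adjusted p = 0.0940), and without β-alanine library 1 it passed as lower (adjusted p = 0.000205). SRRM2, a very large scaffold of nuclear speckles, lay at -0.08 ± 0.03 (adjusted p = 0.0836), from 1037 to 980.2 CPM, and it passed as lower without β-alanine library 1 (adjusted p = 0.0300) and in limma-voom.

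None of the 6 kinases passed the adjusted test in edgeR, DESeq2 or limma-voom. Over all tested genes 27.9%, 21.5% and 28.6% passed in either direction in these tests. Whether the kinases differ from the other classes was not tested. In edgeR 3 kinases had an unadjusted p below 0.05, and the median log2 fold change of the 6 was 0.01. CLK1 measured 48.1, 47.7 and 47.8 CPM with β-alanine and 52.3, 50.5 and 52.5 CPM in controls. Its treated values were all lower, with a log2 fold change of -0.11 ± 0.05 (95% interval -0.22 to -0.01), an unadjusted p of 0.0367 and an adjusted p of 0.103. CLK2 measured 87.9, 84.0 and 81.9 CPM with β-alanine and 94.1, 89.1 and 90.0 CPM in controls. It too was lower in every treated library, at -0.11 ± 0.05 (adjusted p = 0.0791), and it passed without β-alanine library 1 (adjusted p = 0.00942). CLK3 measured 69.6, 70.6 and 71.4 CPM with β-alanine and 65.9, 69.0 and 67.0 CPM in controls. It was higher in every treated library, at 0.07 ± 0.05 (95% interval -0.03 to 0.17, adjusted p = 0.288). CLK4 measured 22.6, 25.4 and 24.4 CPM with β-alanine and 25.8, 24.6 and 25.1 CPM in controls. The groups overlapped, and the log2 fold change was -0.05 ± 0.07 (95% interval -0.19 to 0.09, adjusted p = 0.637).

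Both cytoplasmic kinases had positive values. SRPK1 measured 224, 224 and 227 CPM with β-alanine and 212, 212 and 215 CPM in controls. Every treated library was above every control, yet the log2 fold change of 0.08 ± 0.04 (95% interval 0.00 to 0.16) did not pass (adjusted p = 0.114). SRPK2 measured 110.1, 114 and 109 CPM with β-alanine and 104, 103 and 111 CPM in controls. Control 3 lay among the treated libraries, and the log2 fold change was 0.07 ± 0.04 (95% interval -0.02 to 0.16, adjusted p = 0.272). The 95% intervals of the 6 kinases together spanned -0.22 to 0.17 on the log2 scale. CLK3, SRPK1 and SRPK2 share exonic bases with genes on the opposite strand (EDC3, LHFPL5 and KMT2E among them).

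The polypyrimidine tract binding proteins repress exons and include the pair PTBP1 and PTBP2 that swap during neuronal differentiation. None of them passed the test in edgeR, DESeq2 or limma-voom, and 1 had an unadjusted p below 0.05 in edgeR. Over all tested genes 27.9%, 21.5% and 28.6% passed in either direction in these tests. PTBP1 measured 479.8, 429 and 431 CPM with β-alanine and 491, 476 and 467 CPM in controls. Treated libraries 2 and 3 lay below all controls and library 1 lay among them. The log2 fold change was -0.10 ± 0.04 (95% interval -0.19 to -0.01, adjusted p = 0.0822), and without β-alanine library 1 it passed as lower (adjusted p = 0.000261). PTBP2 measured 39.0, 40.7 and 40.9 CPM with β-alanine and 41.1, 38.4 and 42.2 CPM in controls. The groups overlapped, with a 95% interval of -0.13 to 0.11 (adjusted p = 0.938). PTBP3 measured 105, 114 and 112 CPM with β-alanine and 106, 107 and 109.8 CPM in controls. It overlapped as well, at 0.04 ± 0.04 (95% interval -0.05 to 0.13, adjusted p = 0.564).

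Of the tissue-restricted regulators, RBFOX2 (chr22:35738736-36028824, minus strand), which binds the UGCAUG element around neural, muscle and mesenchymal exons, fell. It measured 84.5, 77.3 and 78.5 CPM in β-alanine libraries 1, 2 and 3 and 94.1, 87.3 and 88.4 CPM in control libraries 1, 2 and 3. Every treated library was below every control. The means were 80.1 ± 3.86 CPM with β-alanine and 89.9 ± 3.63 CPM in controls (SD, n = 3 each), a log2 fold change of -0.17 ± 0.05 or 11.2% lower (adjusted p = 0.0107), with 0.0791 without β-alanine library 2 and 0.0803 without control 1. NOVA2, a neuronal and endothelial regulator, measured 33.8, 33.9 and 34.3 CPM with β-alanine and 30.1, 28.5 and 32.7 CPM in controls. Every treated library was above every control, and the treated libraries were nearly equal. The log2 fold change was 0.16 ± 0.06 (95% interval 0.03 to 0.30, adjusted p = 0.0617), and it passed as higher without β-alanine library 1 (0.0382) or control 3 (0.0356) and with unscaled library totals. ESRP1, the epithelial splicing regulator, had 4, 6 and 18 counts with β-alanine and 6, 6 and 10 in controls. SRRM4, which drives neuronal microexons, had 0, 0 and 1 counts with β-alanine and 0, 0 and 3 in controls. Neither was tested, and a difference was not detectable at this depth.

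The treated libraries did not shift equally. Taking each library's median log2 level of the 16 genes that fell relative to the control mean, β-alanine libraries 1, 2 and 3 lay at -0.08, -0.18 and -0.24, and the controls at -0.01, 0.01 and -0.01. These genes were chosen for their difference between the groups, so the gap to the controls is a description only. β-alanine library 1 was the highest of the treated libraries in 15 of the 16. In 3 of the 6 classes library 1 shifted least: mean shifts in libraries 1, 2 and 3 were -0.03, -0.11 and -0.14 for SR proteins, -0.02, -0.08 and -0.14 for hnRNPs and -0.06, -0.15 and -0.18 for SR-related proteins. The other classes did not show this order, with -0.02, 0.00 and -0.02 for kinases, -0.03, -0.02 and -0.03 for PTB proteins and 0.03, -0.03 and -0.01 for the tissue-restricted regulators. Library 1 is also the shallowest library. Among the treated libraries it lay nearest the controls on the first principal component of all genes and farthest from them on the second. The part of depth in its smaller shift was not tested beyond thinning all libraries to its depth, where 15 members and 11.7% of all tested genes fell.

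**Figure D3:**
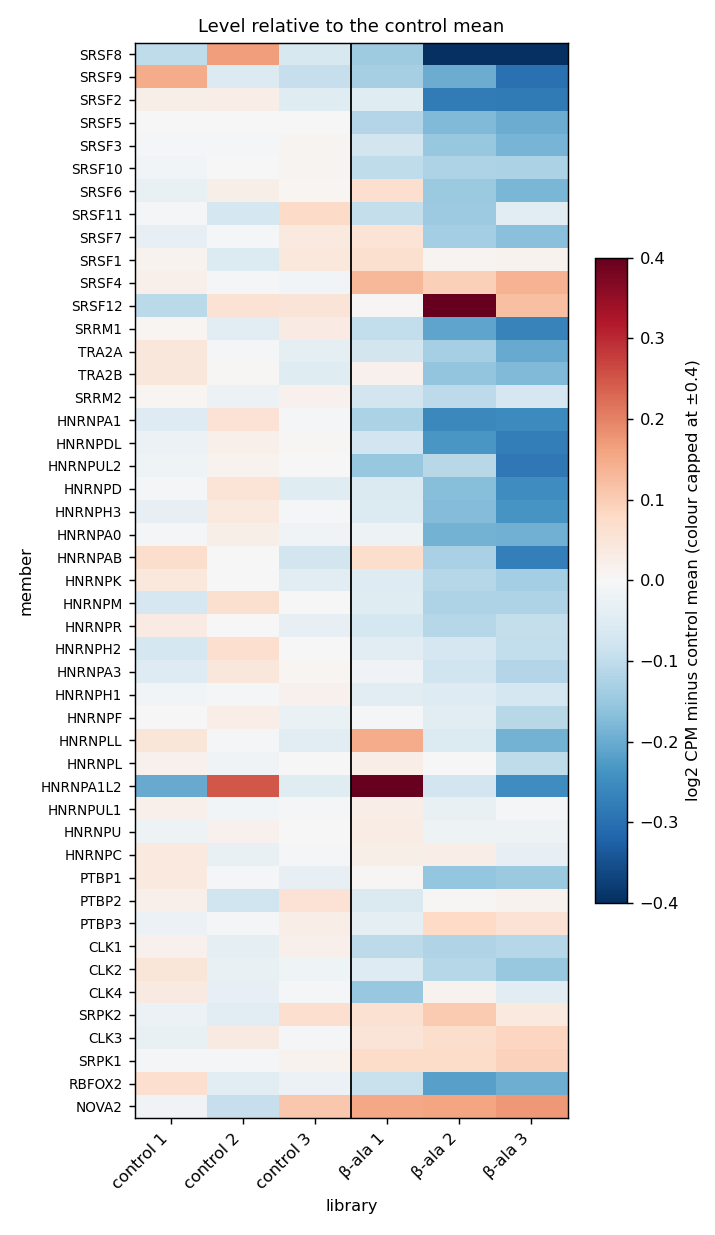
Log2 level of each member in each library relative to the control mean; rows are members ordered by class and change, columns are libraries, and the colour scale is capped at 0.4 in either direction. β-alanine library 1 lies nearer the controls than libraries 2 and 3 for SR proteins, hnRNPs and SR-related proteins.

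Levels between genes were compared per kilobase of annotated exon (GENCODE release 29), which understates genes with long rare exons. In controls HNRNPA1 came first at 416.5 CPM per kb, followed by HNRNPK at 145.3, HNRNPF at 130.8, HNRNPAB at 112.7 and HNRNPC at 108.5. SRSF2, at 76.5 CPM per kb, was the highest SR protein. Among the lowest were NOVA2 at 3.50, CLK3 at 3.29, CLK4 at 3.18, PTBP2 at 3.14 and SRSF12 at 1.53 CPM per kb. The exon lengths of CLK3 and HNRNPU are 20443 and 22512 bases, so their places are uncertain. HNRNPU lay at 50.4 CPM per kb in controls, though its level there was 1135 CPM. The 49 tested rows together summed to 13750 to 14670 CPM with β-alanine and 15000 to 15150 CPM in controls, so every treated library gave it a smaller share of its RNA than any control.

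Paralogs with related binding were compared as a ratio within each library, for 19 pairs. With 3 libraries against 3 the smallest possible two-sided exact permutation p is 0.1, and after Benjamini-Hochberg adjustment over the 19 the smallest was 0.317, so no pair could pass. In 6 pairs the ratios of the groups did not overlap, each at the smallest p of 0.1 (exact permutation test). For single genes, 19.2% of all tested genes did not overlap and were lower, and 19.9% were higher. Such a share was not taken for ratios. All of these pairs except CLK2 over CLK3 hold a member that passed the test, so they are not separate from those calls. SRSF4 over SRSF6 went from 2.43 in controls to 2.82 with β-alanine. SRSF1 over SRSF9 went from 0.685 to 0.809, and HNRNPUL1 over HNRNPUL2 from 3.89 to 4.40. HNRNPA1 over HNRNPA3 went from 4.10 to 3.72 and SRSF10 over SRSF12 from 38.8 to 31.4. CLK2 over CLK3 was lower by a log2 difference of -0.175. In the other 13 pairs the difference of the log2 ratio ran from -0.133 to 0.167 and the groups overlapped, TRA2A over TRA2B and SRPK1 over SRPK2 among them.

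**Figure D4:**
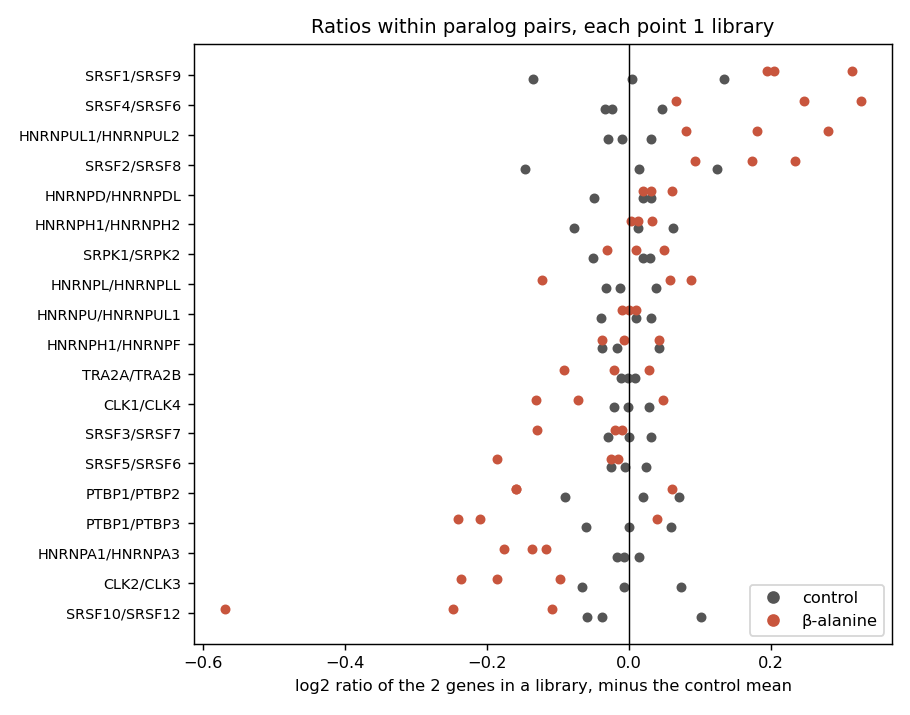
Log2 ratio of 2 related genes in each library, relative to the mean of the control libraries, for 19 pairs; points are single libraries. In 6 pairs, SRSF4 over SRSF6 and CLK2 over CLK3 among them, the β-alanine points do not overlap the controls.

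Other parts of the splicing machinery were read from lists chosen by function. Of 67 tested regulators that bind exons or introns outside the set, 23 fell and 3 rose, with a median log2 fold change of -0.09. The share that fell was 34.3%, while over all tested genes 13.8% fell and 14.1% rose. PCBP2, a C-rich binding protein also known as hnRNP E2, fell from 255 to 176 CPM (-0.54 ± 0.06, adjusted p = 1.3e-05), and RBM25, a speckle protein that binds exonic enhancers, fell by 0.26 ± 0.04 (3.61e-05). Of 8 Sm core proteins, 3 fell (37.5%) and none rose: SNRPD3 (-0.28 ± 0.07, 0.00382), SNRPD1 (-0.21 ± 0.05, 0.00484) and SNRPF (-0.18 ± 0.05, 0.0112).

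Among the core particles, 3 of 20 U1 and U2 snRNP proteins fell (15.0%, against 13.8% of all tested genes) and 2 rose, with a median of -0.01. The U2 protein SNRPA1 (0.27 ± 0.04, adjusted p = 6.83e-05) and the branch point protein SF3B6 (0.23 ± 0.04, 0.000237) rose, and SNRNP70, the U1 protein that SR proteins bind, fell (-0.17 ± 0.04, 0.00432). Of 27 tri-snRNP and catalytic step proteins, 6 rose and 4 fell (14.8% fell), with a median of 0.01. These shares of falls are near that of all tested genes. The release helicase DHX8 fell from 186 to 149 CPM (-0.32 ± 0.04, adjusted p = 5.66e-06), while DHX38 (0.19 ± 0.04, 0.00136) and PLRG1 (0.21 ± 0.05, 0.00250) rose. Of 21 other kinases, phosphatases and carriers that act on SR proteins, 2 rose and 1 fell (4.76% fell, against 13.8% of all tested genes). The export receptor NXF1 (0.20 ± 0.04, 0.00159) and GSK3B (0.11 ± 0.04, 0.0454) rose, and the phosphatase subunit PPP1CC fell (-0.15 ± 0.04, 0.00504). Whether the lists differ from one another was not tested.

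**Figure D5:**
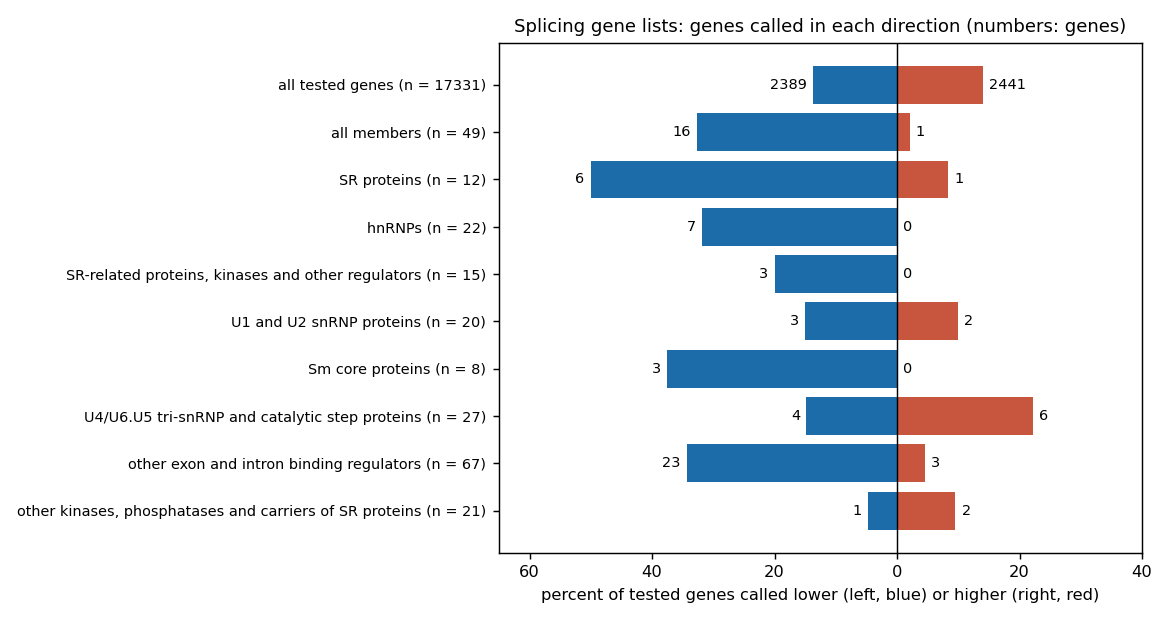
Percent of the tested genes of each list that fell (left, blue) or rose (right, red) at an adjusted p below 0.05; the numbers are genes and n is the number tested. The SR proteins (6 fell, 1 rose), the hnRNPs (7 and 0) and the other regulators (23 and 3) lean to the left, while all tested genes split nearly evenly (2389 and 2441).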

How the data were processed

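Gene counts from 6 libraries of DMS114 cells, 3 per group, were used as the authors deposited them, as whole raw counts per gene symbol. Per the labels' protocols, libraries came from polyadenylated RNA and a TruSeq kit. Per the submitters' processing notes, reads passed through bcl2fastq, Trimmomatic 0.39, STAR 2.7.3a (GRCh38) and featureCounts 2.0.1, with DESeq2 also named. How each was set, which annotation was counted and whether strand was used is not given in the sources used here. Without strand, overlapping genes share reads, and reads of near-identical copies may be lost or moved.

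The filter filterByExpr left 17331 of 36458 genes, which were scaled by TMM. Groups were compared by the quasi-likelihood test of edgeR 4.0.16 (R 4.3.3) with robust shrinkage, two-sided; p-values were adjusted by Benjamini-Hochberg over every tested gene, and 0.05 was the threshold. Fold changes are given as log2, treated over vehicle, with SE, and CPM uses scaled totals. The biological coefficient of variation was 4.35%. The script was tested on simulated data, where 20 of 49 changes of 1.25-fold (40.8%) were recovered and 15 of 161 calls were false. Smaller changes were not simulated, so a member that did not pass may still have changed slightly. Alternatives were other scalings and filters, DESeq2 1.42.0, limma 3.58.1 voom, a replicate block, thinning and leaving out each library. Exon lengths and overlaps are from GENCODE release 29; positions and promoters are from RefSeq on GRCh38.p14.

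The members and gene lists were chosen with earlier results of these data known. Given with every library's value are the 6 falls and the rises with the smallest p, the largest called change per class, every kinase, and the tested PTB and tissue-restricted genes; SRSF2 and SRSF9 were added after their values were seen. From each related list, up to 3 called genes with the smallest p are named, and some results are not reported here. HNRNPA2B1 is named because the pattern omits it.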

Additional observations from a re-analysis of the deposited data

How the results depend on the processing

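No alternative turned the direction of a member that passed the test, or of the 6 paralog ratios whose groups did not overlap. In every member that passed except SRSF2 the groups did not overlap either. Leaving out 1 library could therefore hardly have turned a direction, and the result is a description only. Over all tested genes, 2441 rose and 2389 fell, and with 1 library left out the counts ran from 1501 to 3204 and from 1473 to 3294. Among the members, 16 fell and 1 rose, with 6 to 28 and 0 to 2 when 1 library was left out. For SR proteins the falls ran from 2 to 9 and the rises from 0 to 1, for hnRNPs the falls from 2 to 12, and for the SR-related proteins, kinases and other regulators the falls from 1 to 7 and the rises from 0 to 1. With unscaled library totals 2 members rose, NOVA2 being the added one, so 1 of the SR-related proteins, kinases and other regulators rose. Without control 1, 11 of the 17 calls were kept, and without control 3, 14.

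Deviations from the group mean correlated little between any treated and any control library, from -0.0718 to 0.0716. Same-numbered libraries had correlations of 0.0496, 0.00365 and 0.0716. β-alanine libraries 1 and 3 correlated best with the control of the same number, and library 2 with control 1 (0.00796). Whether the numbers pair the libraries is therefore not settled, and the main fit treated them as unpaired. With the replicate number as a block, 22 members fell, 5 of them SR-related proteins, kinases and other regulators, and 2608 genes fell and 2564 rose over all.

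Values near 0 changed sign in genes that did not pass. With unscaled totals PTBP2, HNRNPU and HNRNPUL1 each lay at 0.01. Without the filter on low counts HNRNPU lay at 0.0029 and HNRNPUL1 at 0.0025. With thinning HNRNPU lay at 0.0001 and HNRNPLL at 0.0035, and with the filter at an average log2 CPM of 1 HNRNPC lay at -0.001. With 1 library left out PTBP2 ran from -0.05 to 0.02, HNRNPU from -0.03 to 0.0043, HNRNPLL from -0.13 to 0.04, HNRNPC from -0.01 to 0.02, HNRNPL from -0.05 to 0.01 and HNRNPUL1 from -0.02 to 0.01. The cause of these shifts was not tested. Depth limits what can be said of ESRP1, SRRM4 and the pseudogenes.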

Other observations

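Reads of HNRNPA1 can be placed on its many processed copies. The 42 rows named as HNRNPA1 pseudogenes, 5 of them high enough to test, held 5.35% to 5.54% as many counts as HNRNPA1 in the β-alanine libraries and 5.09% to 5.55% in the controls, so this share was alike in both groups. For HNRNPA3 the 10 pseudogene rows held 2.76% to 3.28% and 2.66% to 3.04%. Of the 14 pseudogene rows among the members, 12 were too low to test. HNRNPCP2 had 47, 114 and 120 counts with β-alanine and 70, 90 and 72 in controls, and HNRNPLP2 had 10, 22 and 31 and 27, 11 and 12. The coding copies HNRNPCL1, HNRNPCL2 and HNRNPCL3 were also too low to test.

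Many members are annotated with transcripts that are targets of nonsense-mediated decay. GENCODE release 29 lists at least 1 such transcript for 34 of the 47 tested members that are not pseudogenes (72.3%) and for 5525 of 13184 other tested protein-coding genes (41.9%). The members also have more annotated transcripts, a mean of 13.2 against 9.13, so the shares are not matched on that number. A retained intron transcript is listed for 33 of the 47 (70.2%) and for 56.55% of the others. The median log2 fold change was -0.10 in members with an annotated decay transcript and -0.07 in those without. Whether the share of such isoforms changed was not analysed here, since the counts are per gene.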
